A study of Monodelphis domestica with 8 samples.

Results

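The regions described here are the stretches of opossum autosome most crowded with H3K4me3. Chromosomes 1 to 8 were divided into bins of 1 Mb starting at whole multiples of 1 Mb, and a bin was taken as H3K4me3-rich when the midpoints of 15 or more peaks of the H3K4me3 list fell in it. Of 3425 autosomal bins, 356 met this rule (10.4%), and the other 3069 served for comparison. The rich bins were thus chosen by their count of H3K4me3 peaks, so their H3K4me3 values are a description and support nothing.

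The lists come from ChIP-seq on the brain of female Monodelphis domestica fetuses at embryonic day 13. Of 8 libraries, 2 were made per mark, 1 from each of 2 pools of sister fetuses, and each pool held 2 sisters. Chromatin cut with micrococcal nuclease was shared out equally among antibodies to H3K4me3, H3K9Ac, H3K27me3 and H3K9me3. In one pool both parents were of strain LL2, and in the other an LL1 mother was crossed with an LL2 father. The labels name no treatment or engineered allele in either pool. Brain tissue mixes many cell types, so a bin with 2 marks need not carry both in the same cell. A mark's pair of libraries was deposited as 1 joint list, which leaves a single value per bin and mark, no replicate error and no test over samples. Intervals below are exact 95% binomial intervals for the counting of peaks only, and they are too narrow where peaks cluster. Sequencing depth is unknown from the lists. No gene annotation in their coordinates was used here, so bins are named by position and the tissue label was not checked against marker genes.

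H3K4me3 marks the nucleosomes around active and poised transcription start sites, mostly at CpG islands. The number of its peaks in a megabase may therefore reflect how many promoters lie there, which was not examined here. H3K9Ac is laid down by histone acetyltransferases at promoters in use. H3K27me3 is written by Polycomb repressive complex 2 and, together with H3K4me3, marks the poised promoters of developmental genes in embryonic tissue. H3K9me3 marks constitutive heterochromatin and, in gene-dense sequence, arrays of zinc finger genes and silenced repeats.

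The rich bins were spread unevenly over the chromosomes. Chromosome 2 had the highest proportion, 81 of 542 bins (14.9%, 12.05% to 18.2%), followed by chromosome 4 with 58 of 436 (13.3%, 10.3% to 16.9%). Chromosome 1 held 81 of 748 bins (10.8%), chromosome 3 held 53 of 528 (10.04%), chromosome 6 held 28 of 292 (9.59%) and chromosome 8 held 30 of 313 (9.58%). The lowest proportions were those of chromosome 5, 13 of 305 bins (4.26%, 2.29% to 7.18%), and chromosome 7, 12 of 261 (4.598%, 2.40% to 7.89%). The intervals of chromosomes 5 and 7 lay below that of chromosome 2, while those of chromosomes 1, 3, 6 and 8 overlapped one another.

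Along the chromosomes, rich bins gathered towards the far end. With each chromosome cut into 10 equal segments from its first base, 92 of 339 bins of the last segment were rich (27.1%) and 58 of 343 in the segment before it (16.9%). In the other 8 segments the share ran from 3.22% to 10.7%. Together the last 20% of the chromosomes held 150 rich bins of 682 (22.0%), against 206 of 2743 in the remainder (7.51%). Chromosomes 3 and 4 carried most of this concentration. On chromosome 3, 48 of the 105 bins in the last 20% were rich (45.7%) and only 5 of the 423 bins before it (1.18%), and on chromosome 4 the shares were 40 of 87 (46.0%) and 18 of 349 (5.16%). The share was also higher in the last 20% on chromosomes 1, 2, 5 and 7, by little on chromosome 1 (11.4% against 10.7%), and lower on chromosomes 6 (6.90% against 10.3%) and 8 (8.06% against 9.96%). The 10 bins at each chromosome end held 29 rich bins of 160 (18.1%, 12.5% to 24.98%), against 10.02% of all other bins.

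**Figure D1:**
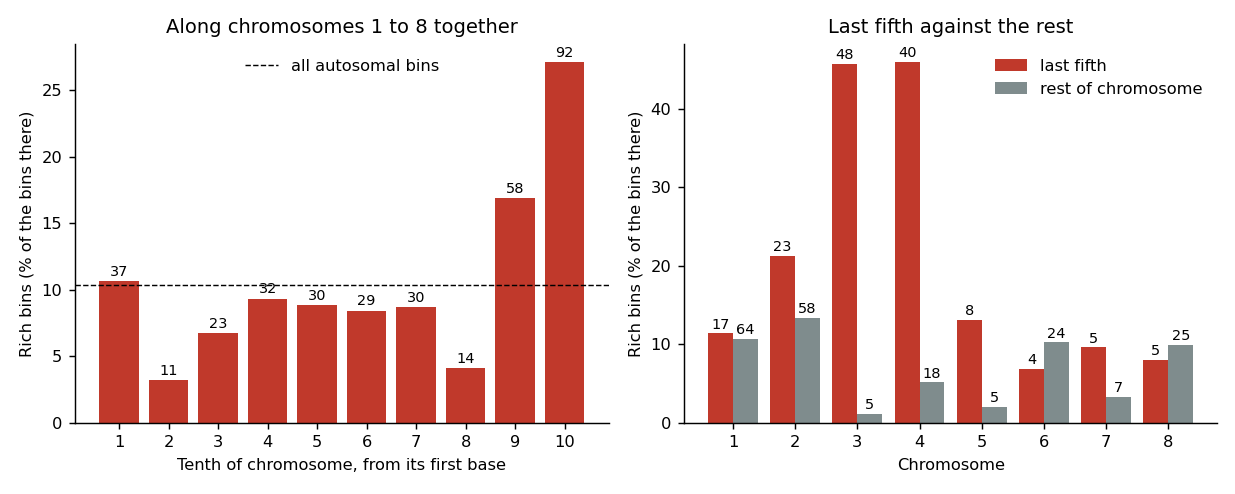
Share of 1 Mb bins that were H3K4me3-rich (percent), on the left by segment of 10% of chromosome length with all autosomes together, on the right for the last 20% of each chromosome (red) and the rest of it (grey). Numbers on the bars are counts of rich bins and the dashed line is the share over all autosomal bins, 10.4%; the last segment reached 27.1%, and chromosomes 3 and 4 reached 45.7% and 46.0% in their last 20%.

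Rich bins lay side by side more often than singly. They formed 207 runs, of which 130 were single bins and 77 held 2 or more, so that 226 of the 356 (63.5%, 58.2% to 68.5%) touched another rich bin. Of the 3069 other bins, 369 touched a rich bin. Counted over each side of each rich bin, 42.0% of neighbouring positions were rich, against 10.4% of all autosomal bins. A bin between 2 rich bins is counted for each of them. The interval treats bins as independent, although contact between 2 bins is mutual. There were 45 runs of 2 bins, 16 of 3, 6 of 4, 5 of 5, and 1 each of 6, 7 and 8, and 2 runs reached 9 Mb. The run chr2:197000001-206000000 held 257 H3K4me3 peaks, 106 H3K9Ac peaks and 116 H3K27me3 peaks, with 19 to 39 H3K4me3 peaks in each bin. The other, chr4:360000001-369000000, held 183 H3K4me3, 81 H3K9Ac and 76 H3K27me3 peaks. Next came chr8:8000001-16000000 with 192 H3K4me3 peaks, of which 26.0% overlapped H3K9Ac, and chr2:188000001-195000000 with 232, of which 39.7% did. The fifth, chr3:499000001-505000000, differed in make-up from these. Its 139 H3K4me3 peaks stood beside 16 H3K9Ac, 27 H3K27me3 and 55 H3K9me3 peaks, and 10.8% of them overlapped H3K9Ac.

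Peak counts of every mark fell steeply at the edges of runs. The 369 bins directly beside a rich bin averaged 7.68 H3K4me3 peaks, against 21.2 in the rich bins, a gap that the threshold itself widens. The neighbours averaged 3.84 H3K9Ac and 3.03 H3K27me3 peaks, against 10.04 and 7.26 in the rich bins. Most H3K9Ac peaks sit on H3K4me3 peaks, so part of the fall in H3K9Ac also follows from the threshold. The share of H3K4me3 peaks in H3K9Ac hardly changed across the edge, from 38.3% in rich bins to 39.7% in the neighbours. For H3K27me3 the shares were 15.4% and 15.1%. At 10 bins or more from a rich bin the averages were 3.82 H3K4me3, 2.35 H3K9Ac and 1.104 H3K27me3 peaks. Beside rich bins H3K27me3 thus stood farther above its distant level, in proportion, than H3K9Ac did. H3K9me3 averaged 0.708 peaks in rich bins, 0.203 in the neighbours and 0.144 at 10 bins or more. The flanks differed between runs. The bins on either side of the 7 Mb run on chromosome 2 held 1 and 7 H3K4me3 peaks, and those beside the 9 Mb run on chromosome 4 held 5 and 12.

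**Figure D2:**
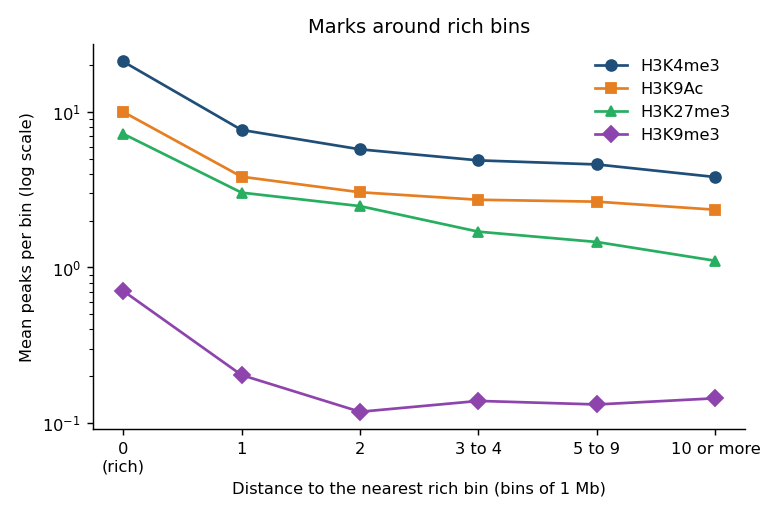
Mean number of peaks per 1 Mb bin (log scale) against distance from the nearest H3K4me3-rich bin in bins of 1 Mb, for the 4 marks. The 356 rich bins stand at 0 and the 1417 bins at 10 or more are the last point; H3K4me3 falls from 21.2 to 7.68 and H3K27me3 from 7.26 to 3.03 over the first step.

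The most crowded bin of the autosomes was chr2:494000001-495000000, with 64 H3K4me3 peaks that covered 19.2% of it. It also held 31 H3K9Ac peaks and 26 H3K27me3 peaks, and 25 of its 64 H3K4me3 peaks overlapped H3K27me3 while 22 overlapped H3K9Ac. Peaks less than 5 kb apart joined into 33 groups there, so that many of its peaks were close neighbours. The bin chr2:255000001-256000000 followed with 46 H3K4me3 peaks, of which 16 overlapped H3K9Ac, and chr4:383000001-384000000 also had 46, of which only 7 did. Its neighbour chr4:384000001-385000000 had 45, with 9 in H3K9Ac and 3 in H3K27me3. The bin chr3:447000001-448000000 had 43, of which 21 overlapped H3K27me3 and 10 H3K9Ac. Of the 3 bins with 40, chr6:85000001-86000000 had 24 of its peaks in H3K9Ac and no H3K27me3 peak at all, chr2:189000001-190000000 had 17 in H3K9Ac, and chr8:13000001-14000000 had 13. The 10 most crowded bins closed with chr2:191000001-192000000 and chr2:197000001-198000000, each with 39, of which 14 and 15 overlapped H3K9Ac. These 10 bins, 5 of them on chromosome 2, therefore ranged from 15.2% to 60% in the share of H3K4me3 peaks that met H3K9Ac.

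Within a rich bin the H3K4me3 peaks were usually spread over most of the megabase. From its first peak to its last a bin spanned a median of 892 kb (interquartile range 812 kb to 944 kb), and the longest stretch without a peak had a median of 179 kb. Neighbouring peaks stood a median of 23.7 kb apart, against 64.8 kb in the other bins, and 23.1% of gaps were under 5 kb, against 16.1%. The rule asks for 15 or more peaks in 1 Mb, so shorter gaps follow at least partly from it. Whether the spread differs from that of as many peaks placed at random was not tested. When peaks less than 5 kb apart were counted as 1, 137 of the 356 bins fell under 15, so for those the rule was met partly through split or adjacent peaks.

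H3K9Ac was dense in the rich bins. They held 3576 of 11858 autosomal H3K9Ac peaks (30.2%), a mean of 10.04 per bin against 2.70 in the other bins, and a density ratio of 3.72 (3.58 to 3.87). The median was 9 peaks (interquartile range 6 to 13, highest 35), against 2 (0 to 4, highest 17) in the other bins, so the ranges overlap. H3K9Ac covered 1.12% of the rich bins and 0.319% of the others. At least 1 H3K9Ac peak lay in 354 of the 356 rich bins (99.4%), against 74.5% of all autosomal bins. Most H3K9Ac peaks sit on H3K4me3 peaks, 91.2% in the rich bins and 89.5% elsewhere, so the bin counts of the 2 marks are tied to each other by this overlap. The H3K9Ac peaks that touched no H3K4me3 peak, 316 in rich bins and 870 in the others, had a density ratio of 3.13 (2.74 to 3.57). The ratio was above 1 within each of the 8 chromosomes, from 3.23 on chromosome 8 to 4.21 on chromosome 2.

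In proportion to H3K4me3, H3K9Ac was less frequent in the rich bins. They had 0.474 H3K9Ac peaks for each H3K4me3 peak and the other bins 0.569. The rule selects a high H3K4me3 count, which is the denominator here and in the shares below. Lower values may thus follow partly from the choice of bins. Of the 7536 H3K4me3 peaks in rich bins, 2886 (38.3%, 37.2% to 39.4%) overlapped H3K9Ac, against 6471 of 14550 in the others (44.5%, 43.7% to 45.3%), and the intervals did not overlap. The share was 43.9% in bins with 1 to 4 H3K4me3 peaks, 46.2% with 5 to 9, 42.7% with 10 to 14, 37.9% with 15 to 19, 39.98% with 20 to 24 and 37.4% with 25 or more. It also went with distance from a rich bin, at 39.7% directly beside one, 40.1% at 2 bins and 48.0% at 10 or more. The bins at the first 2 distances averaged 7.68 and 5.76 H3K4me3 peaks, so a low share was not limited to crowded bins. The acetylated share was lower in rich bins on 7 of 8 chromosomes, most on chromosome 3 (31.3% against 43.9%), and higher on chromosome 6 (47.4% against 44.0%). Among H3K4me3 peaks of like score the direction mostly remained. In the fourth of 5 equal classes of the authors' score the share was 57.7% in rich bins and 66.3% in the others, in the highest class 82.3% and 86.6%, and in the lowest, where few peaks are acetylated, 8.61% and 8.42%. H3K9Ac peaks themselves had a median score of 78.3 in rich bins and 87.8 elsewhere.

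**Figure D3:**
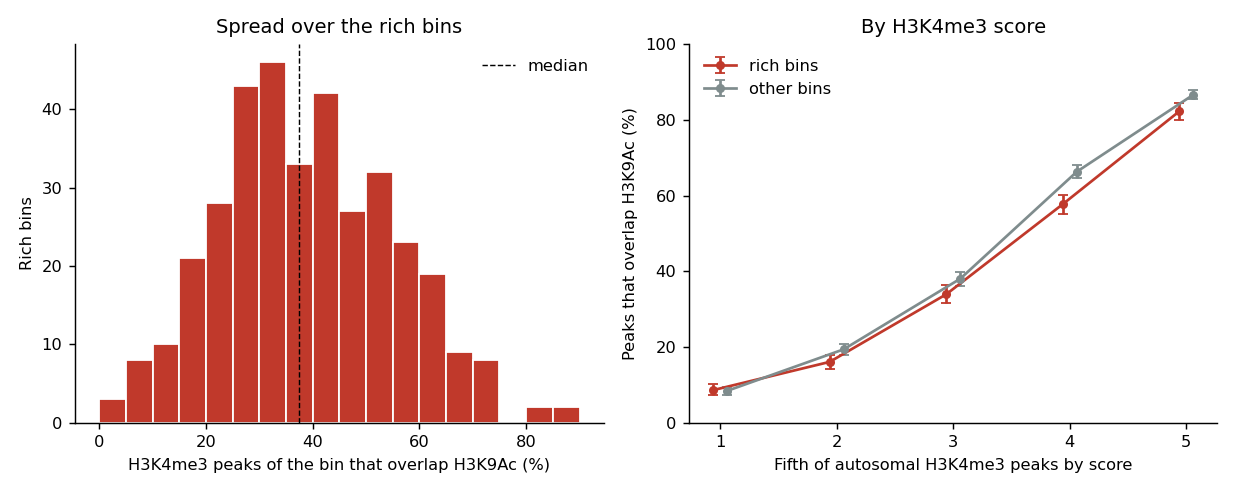
Left, histogram over the 356 rich bins of the percentage of their H3K4me3 peaks that overlap H3K9Ac, with the median of 37.5% dashed. Right, the same percentage for single H3K4me3 peaks in rich (red) and other (grey) bins within 5 equal classes of H3K4me3 score from low to high, with exact 95% intervals of counting; the red points lie below the grey ones in the upper 4 classes.

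H3K27me3, the Polycomb mark, was concentrated in the rich bins as well. They held 2583 of 7485 autosomal H3K27me3 peaks (34.5%), a mean of 7.26 per bin against 1.60, and a density ratio of 4.54 (4.33 to 4.77). The median was 5.5 peaks (interquartile range 2 to 9, highest 59) in rich bins and 0 (0 to 2, highest 28) in the others, and the ranges overlap. Cover was 1.87% against 0.391%. At least 1 peak lay in 329 rich bins (92.4%), against 54.2% of all autosomal bins. The ratio was above 1 on all 8 chromosomes, from 3.08 on chromosome 6 to 6.62 on chromosome 7, and was 2.68 within the last 20% of the chromosomes.

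The excess of H3K27me3 was greatest away from H3K4me3. In rich bins 1410 H3K27me3 peaks touched no H3K4me3 peak, 3.96 per bin against 0.698 in the others, a ratio of 5.68 (5.30 to 6.08). Accordingly 45.4% of H3K27me3 peaks in rich bins overlapped H3K4me3 (43.5% to 47.4%), against 56.3% elsewhere (54.9% to 57.7%). Read from the other side, 1159 of the H3K4me3 peaks in rich bins (15.4%, 14.6% to 16.2%) overlapped H3K27me3, against 17.1% (16.5% to 17.7%). That difference was small, and without the last 10% of each chromosome the shares were 16.9% and 16.8%. The share was lower in rich bins on 6 of 8 chromosomes, and higher on chromosomes 2 (16.3% against 14.3%) and 8 (17.9% against 17.4%). It also depended on the score of the H3K4me3 peak. In the lowest of the 5 score classes the share was higher in rich bins, 19.7% against 15.3%, and in the second class it was 23.4% against 23.2%. In the upper 3 classes it was lower, with 17.5% against 24.6%, 8.96% against 14.6% and 5.45% against 8.88%, and outside the second class the intervals did not overlap.

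Several rich bins held long Polycomb domains, defined here as H3K27me3 peaks less than 5 kb apart joined to more than 20 kb. Such a domain had its midpoint in 51 rich bins (14.3%), against 4.82% of all autosomal bins, and 67 of the 196 autosomal domains lay in rich bins. The longest, chr1:332954375-333265345, spanned 311 kb and touched 35 H3K27me3, 11 H3K4me3, 32 H3K9me3 and no H3K9Ac peaks. The next, chr8:297273075-297435740, spanned 163 kb with 11 H3K4me3 and 6 H3K9Ac peaks. The domain chr2:201099206-201246008, inside the 9 Mb run of chromosome 2, spanned 147 kb with 16 H3K4me3 peaks and 1 H3K9Ac peak, and chr4:187408699-187543137 spanned 134 kb with 15 and 3. The domain chr2:8111134-8179522, of 68.4 kb, held 17 H3K27me3 peaks and no peak of the other marks. Most H3K27me3 peaks of any rich bin lay in chr1:111000001-112000000, with 59 peaks over 20.7% of the bin, in chr7:173000001-174000000, with 53, and in chr2:8000001-9000000, with 42. In the first of these, 14 of 24 H3K4me3 peaks overlapped H3K27me3 and 6 overlapped H3K9Ac.

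**Figure D4:**
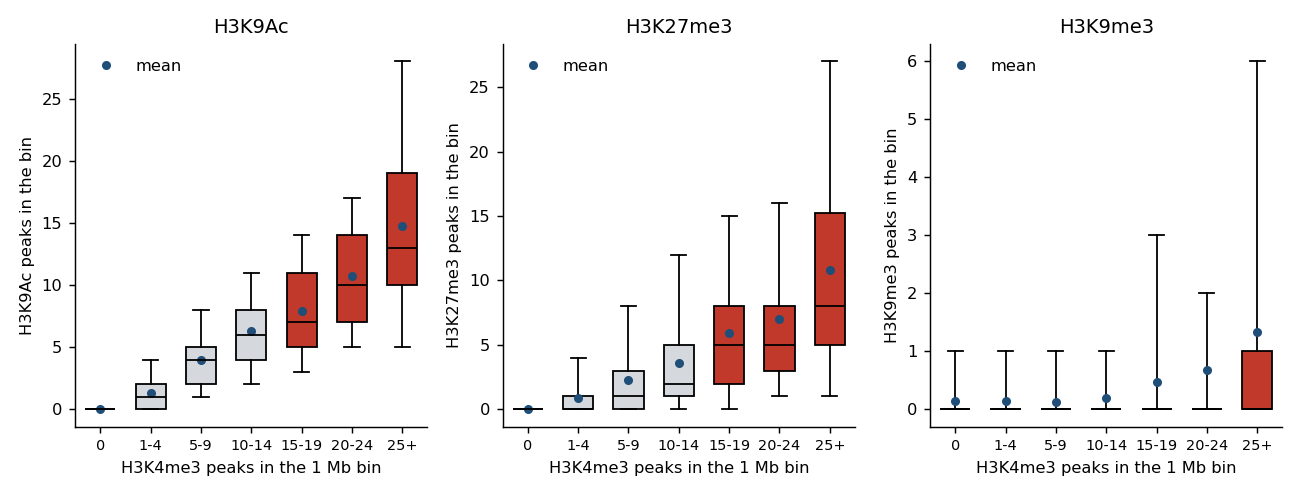
Peaks of H3K9Ac, H3K27me3 and H3K9me3 per 1 Mb autosomal bin (vertical axes, each with its own scale) by the number of H3K4me3 peaks in the bin; boxes show the median and interquartile range, whiskers the 5th and 95th percentiles, points the mean, and red boxes the rich bins. H3K9Ac and H3K27me3 means rise in every class, from 1.32 and 0.858 at 1 to 4 H3K4me3 peaks to 14.7 and 10.8 at 25 or more, while the H3K9me3 median stays at 0 in every class.

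H3K9me3 was sparse everywhere and lay in few rich bins. The rich bins held 252 of 699 autosomal peaks (36.1%), 0.708 per bin against 0.146, and a density ratio of 4.86 (4.15 to 5.68). This ratio rested on a small number of bins. At least 1 H3K9me3 peak lay in 87 rich bins (24.4%, 20.1% to 29.2%), against 13.4% of all autosomal bins, and 55 of the 87 held exactly 1. At least 2 peaks lay in 32 rich bins (8.99%), against 2.19% of all. The 10 rich bins with most H3K9me3 held 128 of the 252 peaks, and without them the ratio was 2.46. Without the last 10% of each chromosome it was 2.84. By chromosome it ran from 1.18 on chromosome 6 to 11.8 on chromosome 3.

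The richest in H3K9me3 was chr1:333000001-334000000, with 31 H3K9me3 peaks over 5.44% of the bin, beside 34 H3K4me3, 13 H3K9Ac and 29 H3K27me3 peaks. It takes in most of the 311 kb Polycomb domain. Its neighbour chr1:332000001-333000000 held 12 H3K9me3 and 32 H3K27me3 peaks. A different combination stood on chromosome 3, where chr3:501000001-502000000 held 20 H3K9me3 peaks, 28 H3K4me3 peaks, 7 H3K27me3 peaks and no H3K9Ac peak, and chr3:526000001-527000000 held 13 H3K9me3 peaks, 3 H3K9Ac peaks and no H3K27me3 peak. The bin chr4:404000001-405000000 had 11, with 6 H3K9Ac peaks and 1 H3K27me3 peak. H3K9me3 thus accompanied dense H3K4me3 both within long H3K27me3 domains and where H3K27me3 was scarce. Of the 252 H3K9me3 peaks in rich bins, 74 overlapped H3K27me3 (29.4%, 23.8% to 35.4%), against 12.1% elsewhere (9.21% to 15.5%). The pair of bins at chr1:332000001-334000000 supplied 42 of the 74. Without that pair, 32 of 209 overlapped H3K27me3 (15.3%, 10.7% to 20.9%), an interval that overlaps that of the other bins. H3K4me3 was overlapped by 18.7% of H3K9me3 peaks in rich bins (14.04% to 24.02%), against 13.6% elsewhere (10.6% to 17.2%).

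The combination of marks was also described by taking as H3K9Ac-rich the bins with 9 or more H3K9Ac peaks and as H3K27me3-rich those with 7 or more H3K27me3 peaks, in each case the lowest count reached by at most 10% of autosomal bins. Of the rich bins, 201 were H3K9Ac-rich (56.5%) and 153 H3K27me3-rich (43.0%), each against 9.4% of all autosomal bins. Both at once held for 78 rich bins (21.9%), against 2.54% of all bins, and these carried most H3K4me3, a median of 25 peaks. A further 123 (34.6%) were H3K9Ac-rich only and 75 (21.1%) H3K27me3-rich only, with medians of 19 and 18 H3K4me3 peaks, and 80 (22.5%) were neither, with a median of 17. Among the other autosomal bins 9 had both, 112 H3K9Ac only and 160 H3K27me3 only. Over the 356 rich bins the counts of H3K4me3 and H3K9Ac rose together (Spearman rho 0.45), those of H3K4me3 and H3K27me3 less so (0.28), and those of H3K9Ac and H3K27me3 ran slightly against each other (-0.13). These are descriptions over bins of single lists that share libraries and neighbours. All 4 marks were present in 77 rich bins (21.6%), against 7.12% of all bins, and H3K9Ac was the only other mark in 19 (5.34%), against 24% of all bins.

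**Figure D5:**
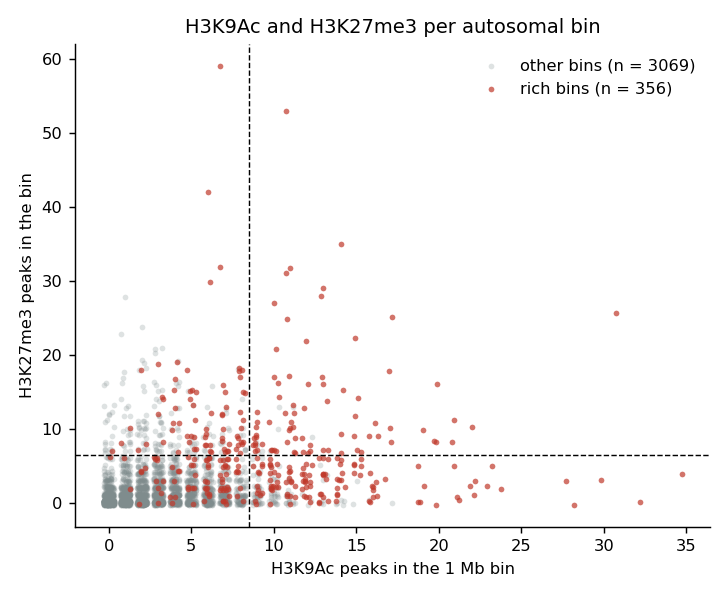
H3K9Ac peaks (horizontal) against H3K27me3 peaks (vertical) in each autosomal 1 Mb bin, with points moved by up to 0.3 to separate ties; red, the 356 rich bins, grey, the 3069 others. The dashed lines mark 9 H3K9Ac and 7 H3K27me3 peaks; 78 rich bins and 9 others lie above both.

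Rich bins were not alike in how much of their H3K4me3 was acetylated. The share per bin had a median of 37.5%, with an interquartile range of 26.4% to 50% and extremes of 0% and 88.2%. In 42 bins it was under 20% and in 40 it was 60% or more. The 2 sets had median H3K4me3 counts of 18 and 17 peaks. The poorly acetylated bins had a median of 6.5 H3K27me3 peaks against 2. They were not the highest, since the 150 bins with a share of 20% to under 40% had a median of 7.5. The 124 bins with 40% to under 60% had a median of 4. At least 1 H3K9me3 peak lay in 17 of the 42 poorly acetylated bins (40.5%), against 7 of the 40 (17.5%). They held 86 H3K9me3 peaks against 7, but 5 bins of chromosome 3 held 59 of the 86, which leaves 27. The poorly acetylated bins lay within 10 bins of a chromosome end in 8 of 42 cases against 1 of 40. Their H3K4me3 peaks had lower scores, with a median of 197 against 571. Across all rich bins the acetylated share rose with the median H3K4me3 score of the bin (Spearman rho 0.62) and fell with the number of H3K27me3 peaks (-0.37), again as descriptions.

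The lowest shares were neighbours. The bins chr3:501000001-502000000 and chr3:502000001-503000000 had no acetylated peak among 28 and 19 H3K4me3 peaks, and chr3:503000001-504000000 had 1 among 29, all inside the 6 Mb run with 55 H3K9me3 peaks. The other 2 of the lowest 5 were chr4:388000001-389000000, with 1 of 18 acetylated and 9 of 18 in H3K27me3, and chr4:405000001-406000000, with 1 of 17. By contrast, most H3K9Ac peaks lay in chr1:455000001-456000000, with 35 beside 27 H3K4me3 peaks, in chr2:257000001-258000000, with 32 beside 34, and in the crowded chr2:494000001-495000000. The bin chr2:257000001-258000000 belongs to a 5 Mb run, chr2:254000001-259000000, in which 56.6% of 159 H3K4me3 peaks overlapped H3K9Ac and 6.29% overlapped H3K27me3. The bins chr2:254000001-255000000 and chr1:172000001-173000000 followed with 30 and 28 H3K9Ac peaks.

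Position went with acetylation as well. In rich bins of the last 20% of the chromosomes 32.1% of 3199 H3K4me3 peaks overlapped H3K9Ac (30.5% to 33.7%), against 42.9% of 4337 in rich bins elsewhere (41.4% to 44.4%). The other bins differed in the same direction, with 36.3% and 46.6%, so the lower share near the far end was not limited to rich bins. In the rich bins within 10 bins of an end it was 27.3%. Position was mixed with chromosome in these shares. Chromosomes 3 and 4 supplied 48 and 40 of the 150 rich bins in the last 20%, but 5 and 18 of the 206 elsewhere. Shares by position within single chromosomes are not given here. The contrast between rich and other bins depended on position too. H3K27me3 averaged 7.25 peaks per rich bin in the last 20% and 7.26 elsewhere, but 2.71 and 1.36 in the other bins, so the density ratio was 2.68 (2.47 to 2.90) in the last 20% and 5.32 (5.002 to 5.65) elsewhere. The H3K9Ac ratio was 3.20 (2.96 to 3.46) and 4.16 (3.97 to 4.36). The H3K9me3 ratio ran the other way. It was 5.67 (4.42 to 7.31) in the last 20%, where rich bins averaged 1.12 peaks. Elsewhere it was 3.02 (2.35 to 3.85), and rich bins averaged 0.408. Of the 252 H3K9me3 peaks in rich bins, 55 lay in the run chr3:499000001-505000000, within the last 20%. A further 43 lay in the run chr1:329000001-334000000, outside it. Such clustering makes the intervals too narrow. How far the contrast by position rests on these runs was not tested.

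By the marks they carried, the H3K4me3 peaks of rich bins comprised 2732 with H3K9Ac alone (36.3%), 1005 with H3K27me3 alone (13.3%), 154 with both (2.04%) and 3645 with neither (48.4%, 47.2% to 49.5%). In the other bins the shares were 41.1%, 13.7%, 3.37% and 41.8% (41.0% to 42.6%). Per megabase, peaks with neither mark were 5.17 times as dense in rich bins, those with H3K9Ac alone 3.94 times, those with H3K27me3 alone 4.34 times and those with both 2.71 times. All H3K4me3 peaks together were 4.47 times as dense, a value that the rule itself makes high. Against it, only the peaks with neither mark lay higher, and the remaining classes lay lower. Peaks with neither mark had a higher median score in rich bins than elsewhere, 189 against 138, whereas acetylated peaks without H3K27me3 had medians of 759 and 831 and peaks with H3K27me3 alone 162 and 214.

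At the threshold the 40 bins with exactly 15 H3K4me3 peaks and the 56 with 14 had the same median of 7 H3K9Ac peaks, median H3K27me3 counts of 3 and 4, and 43.3% and 39.5% of their H3K4me3 peaks in H3K9Ac. H3K9me3 totalled 4 peaks in the former and 27 in the latter.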

How the data were processed

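Of 8 ChIP-seq libraries of fetal brain, 2 per antibody, both libraries of a mark name 1 peak list per the labels. The submitters' processing notes list CASAVA 1.7, Bowtie 1.1.2 and MACS 1.0.1. Not given in the sources used here were the settings, the build, the control library and how libraries were joined. Each deposited peak has a score from the authors, of no stated formula, used only within its list. Depth is unknown. A peak belonged to the bin of its midpoint, and the last bin of a chromosome is the one with the last peak of any mark. The comparison bins include 385 with no peak of any mark. Overlap needed at least 1 bp. Printed starts count from 1. Named bins are the 10 with most H3K4me3, the 5 with most of each other mark, the 5 with the lowest acetylated share and the 5 longest runs, and other named regions, domains and divisions by position, score or share were settled with the values in view. The rich bins, lists and measures were chosen with earlier results of these data known. Alternatives were other thresholds, shifted bins, joined peaks, the top-scoring 50% of peaks, bins by peak start, non-empty comparison bins and stricter overlap. Binning and overlap were tested on simulated data. Python 3.11.15, numpy 2.4.6, pandas 2.3.3, scipy 1.17.1 and matplotlib 3.10.9 were used.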

Additional observations from a re-analysis of the deposited data

Results flagged for a closer look

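Dense H3K4me3 also appeared in sequence that the comparisons leave out. On X, 8 bins of 1 Mb held 15 or more H3K4me3 peaks. The highest was chrX:64000001-65000000, with 39 H3K4me3 peaks, 1 H3K9Ac peak and 83 H3K27me3 peaks, and chrX:71000001-72000000 followed with 32, 5 and 207. The acetylated share of H3K4me3 peaks in the 8 bins ran from 0% to 40%. How many X bins there were in all, and what the others held, is not given here. Of the 17394 H3K27me3 peaks in the full list 7485 were autosomal, so high H3K27me3 counts may not be particular to these bins. In unplaced sequence, 44 of the 103 bins with any H3K4me3 peak met the same count, with 15 to 53 H3K4me3 peaks. Of all autosomal bins, those without H3K4me3 included, 10.4% did. Of the 851 H3K4me3 peaks in the 44 unplaced bins, 80 (9.40%) overlapped H3K9Ac, against 38.3% in autosomal rich bins. This difference was not tested.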

How the results depend on the processing

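The number of rich bins, 356, was 579 with a threshold of 12 peaks, 165 with 20, 218 with peaks less than 5 kb apart joined and 58 with the top-scoring 50% of peaks, each by construction of the setting. All density ratios stayed above 1 in every setting run. Values that moved outside their counting interval were as follows. The H3K9Ac ratio of 3.72 was 4.18 with 20 peaks, 4.56 with top-scoring peaks and 3.26 with non-empty comparison bins. The H3K27me3 ratio of 4.54 was 4.28 with 12 peaks, 4.13 with joined peaks, 4.07 with top-scoring peaks and 3.97 with non-empty bins. The H3K9me3 ratio of 4.86 was 3.96 with 12 peaks, 5.96 with 20 and 6.71 with top-scoring peaks. The acetylated share of 38.3% was 44.2% with joined peaks and 34.8% with top-scoring peaks, below the other bins in both. The share in H3K27me3 of 15.4% was 8% with top-scoring peaks and 13.1% when an overlap had to span at least 50% of the shorter peak. The share of rich bins beside another, 63.5%, was 52.7% with 20 peaks, 69.4% with borders shifted by 500 kb and 56.9% with top-scoring peaks. Other alternatives were added after seeing the data. Without the last 10% of each chromosome the ratios were 3.95 for H3K9Ac, 5.38 for H3K27me3 and 2.84 for H3K9me3, the acetylated share was 40.7%, and the share in H3K27me3 turned from below to above that of the other bins (16.9% against 16.8%). Without the 10 rich bins with most H3K9me3 the H3K9me3 ratio was 2.46. Without the 2 bins around the longest H3K27me3 domain the share of H3K9me3 peaks in H3K27me3 was 15.3% in place of 29.4%. With each chromosome left out in turn the ranges were 3.56 to 3.81 for H3K9Ac, 4.40 to 4.81 for H3K27me3, 3.49 to 5.70 for H3K9me3, 36.8% to 39.5% and 15.02% to 15.97% for the shares in H3K9Ac and H3K27me3, and 60% to 66.5% for bins beside another. The cause of these shifts was not tested. Of 103 values under alternatives, 69 stayed within that interval or, for counts of bins, within 1.5 times. The 103 include the values with each chromosome left out, which share most of their data with the main values and mostly stayed. With the top-scoring 50% of peaks, every value moved. No paired analysis was possible because both libraries of a mark share 1 list, and for the same reason no library could be left out. Depth cannot be weighed, since the lists hold no read counts.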

Other observations

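The highest H3K4me3 score in the rich bins, 3233, belonged to chr2:233135829-233141296, which is 5468 bp wide and touches 2 H3K9Ac peaks. It lies in the same bin as chr2:233115832-233131950, the second widest H3K4me3 peak of the rich bins (16.1 kb), which touches 4 H3K9Ac peaks. The widest, chr8:251866516-251882872, measured 16.4 kb and also touched 4. Of all H3K4me3 peaks of rich bins in the highest of 5 score classes, 82.3% overlapped H3K9Ac and 5.45% H3K27me3. Of the 5 peaks with the highest score, 4 touched H3K9Ac and none touched H3K27me3; the exception was chr3:455036169-455041992. Of the 5 widest, 4 touched H3K9Ac, and 2 touched H3K27me3, chr2:52094104-52106351 without H3K9Ac and chr3:208748337-208759602 with it. Many scores stand at 3100, the value of all 5 widest peaks, so rank by score does not separate them. The formula of the score is not stated, so peaks scored above 3100 need not be stronger than those at 3100.

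The highest acetylated shares, in bins chosen after their values were seen, were 15 of 17 H3K4me3 peaks in chr4:226000001-227000000 and 13 of 15 in chr8:214000001-215000000. The bin next to the latter, chr8:213000001-214000000, had 16 of 20. These 3 bins held 0, 1 and 0 H3K27me3 peaks and no H3K9me3 peak.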
